A study of Mus musculus with 12 samples.

Results

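The 6 keratin genes Krt5, Krt7, Krt8, Krt18, Krt19 and Krt20 were followed through whole-kidney RNA of 12 mouse samples, in 4 groups of 3. The genes were chosen by their symbol in the annotation of the array platform. Each of the 6 had 1 probe set (the group of probes that reads a gene), among 19505 distinct gene symbols on the array. The wild type group had genotype WT and received vehicle. The Alport groups had genotype COL4A5 nonsense (G5X) hemi, a mutation of the collagen chain α5(IV), which basement membranes of the glomerulus contain, and received vehicle, losartan or metformin. Losartan, which blocks the angiotensin II receptor, was in the drinking water at 125 µg/mL from week 6 to week 11 and at 250 µg/mL from week 12. Metformin, a biguanide that lowers blood glucose, was in the water at 2.5 mg/mL and then 5 mg/mL over the same weeks. All mice were 16 weeks old, although the labels date the later dose to week 20. They also describe losartan as co-administered, and the sample titles were used to name the groups. Nothing in the labels ties each sample to a mouse of its own, so each p-value reflects spread among samples that may be partly technical.

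Keratins are the intermediate filaments of epithelial cells. Each filament pairs an acidic type I chain with a basic type II chain, and the chain without a partner is degraded. Krt8 (type II) and Krt18 (type I) form the filament of simple, single-layered epithelia. Krt7 (type II) and Krt19 (type I) are typical of ducts, including the renal collecting duct. Krt20 (type I) belongs to the intestinal surface and the umbrella cells of the urothelium. Krt5 (type II) is the keratin of the basal layer of stratified epithelia and of the basal urothelium, so it is not a simple epithelial keratin in the textbook sense. In the kidney Krt8 and Krt18 are known as genes that injured tubules raise, and Krt20 as a marker of injured proximal tubule.

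In vehicle-treated Alport kidneys 5 of the 6 keratin genes rose against wild type, Krt20 and Krt19 from signals low on the array, Krt18 by 3.78-fold, and Krt7 and Krt8 by 1.88- and 1.86-fold. Krt5 did not pass the test, and 16.1% of all probe sets were called in this comparison. With losartan Krt8 and Krt20 fell against Alport vehicle, beside 7.90% of all probe sets called, and with metformin 0 of the 6 passed the test, beside 4.94%. Of the other 43 keratin genes on the array 0 passed by limma in these comparisons, but 41 of them had every group mean below the lowest array median.

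The sequences just before the annotated start of 4 of the 5 keratins that rose are printed because these genes rose in the same samples. Krt7, Krt8, Krt18 and Krt5 lie on chromosome 15, where Krt8 and Krt18 are neighbours with 0 protein-coding genes between them, and Krt19 and Krt20 lie on chromosome 11 (RefSeq, GRCm38.p6). Each line gives the 250 bases before the start, 5′ to 3′ along the gene's own strand, from RefSeq with build GRCm38.p6. Krt19 is named only.
Krt7, chr15:101412153-101412402, plus strand: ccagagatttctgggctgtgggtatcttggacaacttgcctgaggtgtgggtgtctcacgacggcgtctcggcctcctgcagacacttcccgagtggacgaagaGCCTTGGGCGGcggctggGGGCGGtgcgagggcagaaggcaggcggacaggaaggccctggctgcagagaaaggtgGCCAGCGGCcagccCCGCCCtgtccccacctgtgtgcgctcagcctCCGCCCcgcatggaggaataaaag
Krt8, chr15:102004343-102004592, minus strand: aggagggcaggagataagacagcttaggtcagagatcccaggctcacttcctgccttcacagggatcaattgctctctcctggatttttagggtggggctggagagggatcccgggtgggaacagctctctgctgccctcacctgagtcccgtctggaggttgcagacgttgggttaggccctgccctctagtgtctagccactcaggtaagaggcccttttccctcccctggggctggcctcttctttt
Krt18, chr15:102027966-102028215, plus strand: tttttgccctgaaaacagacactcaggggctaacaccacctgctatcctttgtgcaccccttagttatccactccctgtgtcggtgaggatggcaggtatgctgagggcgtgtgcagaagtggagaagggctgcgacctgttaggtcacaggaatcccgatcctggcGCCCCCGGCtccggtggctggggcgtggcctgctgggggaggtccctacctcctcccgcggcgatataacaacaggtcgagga
Krt20, chr11:99438154-99438403, minus strand: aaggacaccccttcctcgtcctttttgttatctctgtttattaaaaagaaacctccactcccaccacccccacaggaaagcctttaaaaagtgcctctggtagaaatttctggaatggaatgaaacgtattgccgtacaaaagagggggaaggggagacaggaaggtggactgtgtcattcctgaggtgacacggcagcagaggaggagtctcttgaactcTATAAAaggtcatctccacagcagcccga
Capitals mark complete matches, within the printed bases, to 4 motifs searched on both strands. They are AP-1 (TGANTCA), AP-2 (GCCNNNGGC), the TATA box (TATAAA) and the GC box (GGGCGG). In Krt7 an AP-2 match overlaps a GC box. The window searched was 300 bases, from 250 before to 50 after the start, in the 5 keratins with a sequence. TGANTCA was found in 0 of the 5, against 7.81% of all 32851 windows in the table. GCCNNNGGC was found in Krt7 and Krt18, 2 of 5, against 16.6% of all windows. TATAAA was found in Krt20, 29 bases before the start, and in Krt8, where matches on both strands begin 3 and 1 bases before the start and so run past the printed bases, against 13.6% of all windows. GGGCGG was found in Krt7 alone of the 5, 4 times, against 35.7% of all windows. These matches are a description of letters and show no binding.

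All values are log2 signals as deposited, so a difference of 1 is a doubling of signal. The arrays had medians from 5.88 to 6.06 and lower quartiles from 4.18 to 4.25. Pearson correlations over all probe sets, which are not independent replicates, were 0.990 to 0.994 within groups and 0.975 to 0.993 between groups. Kidney identity was plain, with Umod of the thick ascending limb at 18.51 to 18.94 and the proximal phosphate carrier Slc34a1 at 18.40 to 19.19. Col4a5, the mutated gene, read 5.06, 5.83 and 5.40 in wild type and 4.44, 4.13 and 4.97 in Alport vehicle, and fell by 0.92 ± 0.23 (SE, n = 3 per group, limma adjusted p = 0.0116) from a signal below the array medians. In whole kidney, fewer cells of a type and less RNA per cell cannot be told apart.

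**Figure D1:**
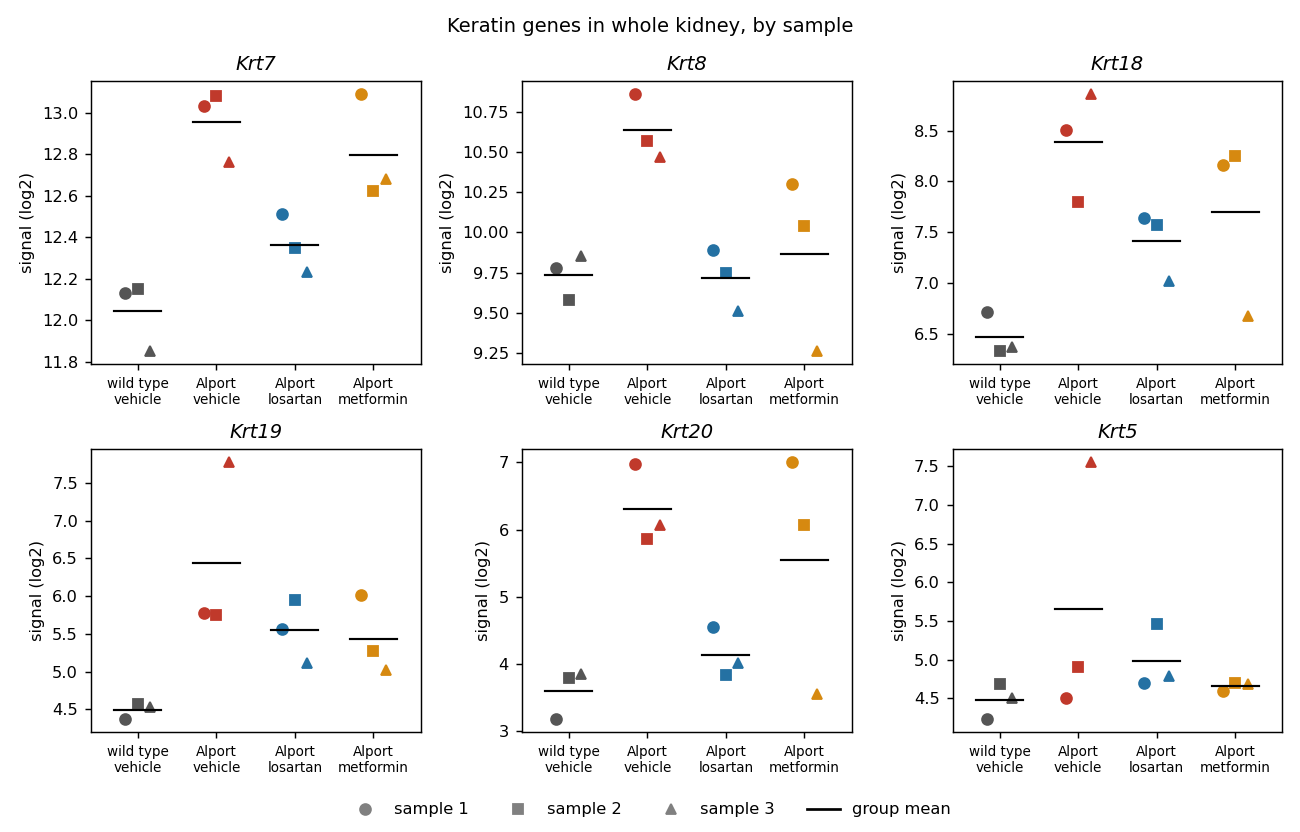
Signal (log2) of the 6 keratin genes in each of the 12 samples, with circles, squares and triangles for samples 1, 2 and 3 of a group and a line for the group mean; each panel has its own vertical scale, which does not start at 0. Alport vehicle lies above wild type without overlap in all panels but that of Krt5, where 1 Alport vehicle sample stands at 7.56, and metformin sample 3 is the lowest Alport sample for Krt8, Krt18, Krt19 and Krt20.

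The comparison of Alport vehicle with wild type asks what the collagen mutation had changed at this age. Among the type II chains, Krt7 of the ducts read 12.13, 12.15 and 11.85 in wild type and 13.03, 13.08 and 12.76 in Alport vehicle. The groups did not overlap, and Krt7 rose by 0.91 ± 0.18 (SE, limma adjusted p = 0.00183). Krt8, the simple epithelial type II chain, read 9.78, 9.58 and 9.85 in wild type and 10.86, 10.57 and 10.47 in Alport vehicle. All Alport vehicle samples stood above all wild type samples, and Krt8 rose by 0.90 ± 0.23 (limma adjusted p = 0.0120). That call was lost without wild type sample 2 (0.82, limma adjusted p = 0.0512) and without Alport vehicle sample 1 (0.78, limma adjusted p = 0.0603).

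Among the type I chains, Krt18, the partner of Krt8, read 6.72, 6.33 and 6.37 in wild type and 8.51, 7.80 and 8.86 in Alport vehicle. The lowest Alport sample was more than 1 log2 unit above the highest wild type sample, and Krt18 rose by 1.92 ± 0.35 (limma adjusted p = 0.00115). Krt19, the ductal type I chain, read 4.37, 4.57 and 4.53 in wild type and 5.78, 5.75 and 7.78 in Alport vehicle. It rose by 1.95 ± 0.41 (limma adjusted p = 0.00349), and by 1.27 without Alport vehicle sample 3, in which it was far above the other two (limma adjusted p = 0.00571). Krt20, of umbrella cells and injured proximal tubule, read 3.17, 3.78 and 3.84 in wild type and 6.98, 5.86 and 6.07 in Alport vehicle. It rose by 2.71 ± 0.58 (limma adjusted p = 0.00391), with the highest value in sample 1. Its 3 wild type values lay below the lower quartile of their arrays, and those of Krt19 lay below the array medians. At such low signals the size of a log2 difference is uncertain, for both genes and in each comparison with a low group.

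Krt5, the basal keratin, behaved differently from sample to sample. It read 4.23, 4.69 and 4.51 in wild type and 4.51, 4.90 and 7.56 in Alport vehicle. Samples 2 and 3 lay above all wild type samples, sample 3 by far the most, and the difference of 1.18 ± 0.52 did not pass (limma adjusted p = 0.146, 95% interval 0.08 to 2.28). It was 0.23 without Alport vehicle sample 3 (limma adjusted p = 0.618) and passed without sample 1 (1.75, limma adjusted p = 0.0333). Krt5 lay below the array median in every sample but Alport vehicle sample 3, so the size of its differences is uncertain in each comparison.

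Of all 22206 probe sets, 16.1% were called in this comparison, 8.43% as higher and 7.71% as lower in Alport vehicle. Of the 6 keratin genes 5 were called, all higher, with a median difference over the 6 of 1.55 against -0.03 over all probe sets. The 5 whose groups did not overlap stand beside 14.2% of all probe sets that were higher, and 15.5% that were lower, in Alport vehicle without overlap. Over all probe sets 1871 calls were higher and 1711 lower, or 1451 and 2842 with each sample centred on its median, which moved the median of all differences from -0.03 to -0.17. With that centring the same 5 genes were called, at 0.76 to 2.57.

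**Figure D2:**
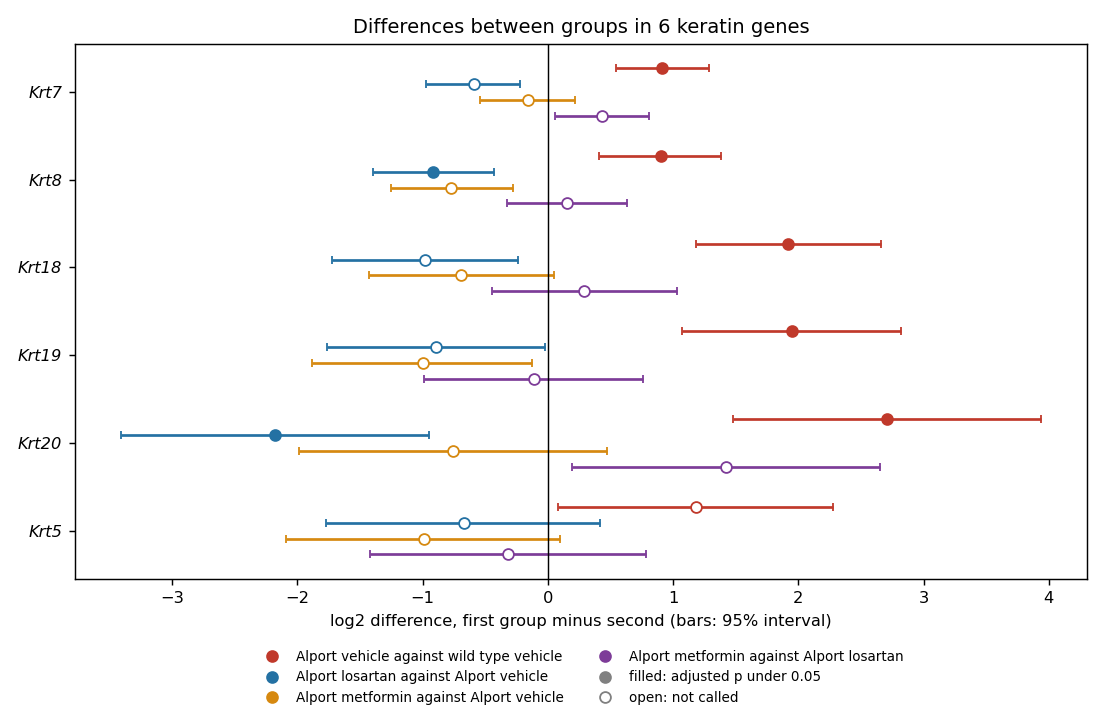
Difference in log2 signal between 2 groups (first minus second) for each keratin gene, as points with 95% intervals from limma; filled points passed an adjusted p of 0.05. The red points for Alport vehicle against wild type are all above 0 and filled for all but Krt5, the blue points for losartan are filled for Krt8 and Krt20, and the points for metformin are open.

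The difference between Krt18 and Krt8, which form 1 filament, was examined within each sample. Krt18 minus Krt8 was -3.06, -3.25 and -3.48 in wild type and -2.35, -2.77 and -1.61 in Alport vehicle. Losartan samples were at -2.25, -2.18 and -2.49, and metformin samples at -2.14, -1.79 and -2.58. The 9 Alport samples all lay above the 3 wild type samples. Alport vehicle exceeded wild type by 1.02, losartan by 0.96 and metformin by 1.09, each with p = 0.1 in an exact permutation test (two-sided, n = 3 per group), the smallest p this design can give, and 0.2 after Benjamini-Hochberg adjustment over the 6 comparisons. Losartan and metformin differed from Alport vehicle by -0.06 and 0.07 (exact permutation p = 0.9 and 0.8), and from each other by 0.14 (exact permutation p = 0.6), each 0.9 after adjustment. The absolute size of this difference depends on the probes and is no ratio of the transcripts.

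**Figure D3:**
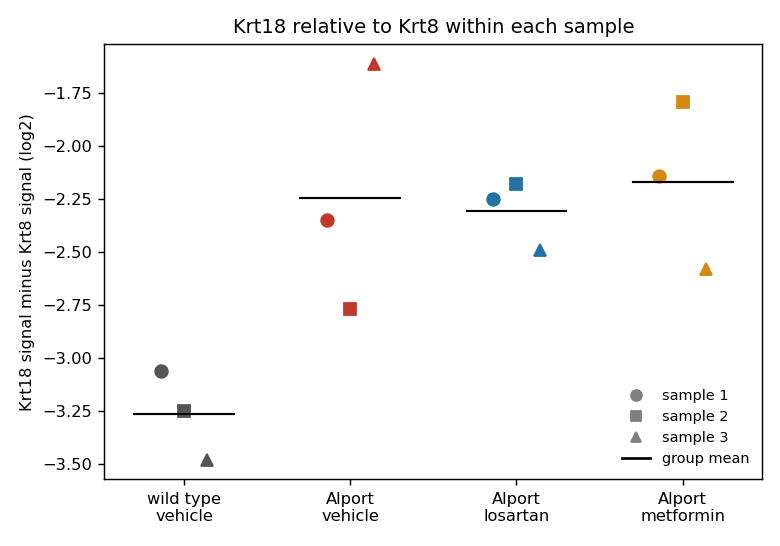
Krt18 signal minus Krt8 signal (log2) within each sample, with a line for the group mean; the vertical axis does not include 0. Wild type samples lie from -3.48 to -3.06, and the 9 Alport samples from -2.77 to -1.61, whatever the treatment.

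Losartan was compared with vehicle among Alport kidneys to see what the receptor blocker changed. This comparison shares the Alport vehicle samples with the comparison above, so the direction of one is not independent of the other. Krt8 read 9.89, 9.75 and 9.51 with losartan, below all Alport vehicle samples and around the wild type values. It fell by 0.92 ± 0.23 (SE, n = 3 per group, limma adjusted p = 0.0210), a 1.89-fold fall. Krt20 read 4.54, 3.83 and 4.01 with losartan, and 2 of these lay below the lower quartile of their arrays. It fell by 2.18 ± 0.58 (limma adjusted p = 0.0303). Both calls were lost without Alport vehicle sample 1 (adjusted p = 0.101 for Krt8 and 0.141 for Krt20), losartan sample 2 (0.0694 and 0.117) or losartan sample 3 (0.0899 and 0.0900), all by limma. Krt20 also lost it without Alport vehicle sample 3 (limma adjusted p = 0.0588) and when the variance prior was trended and robust (limma adjusted p = 0.135).

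Krt7 read 12.51, 12.35 and 12.23 with losartan, below every Alport vehicle and above every wild type sample. Its difference from Alport vehicle of -0.59 ± 0.18 just missed the threshold (limma adjusted p = 0.0508, 95% interval -0.97 to -0.22). It passed after a new quantile normalization (-0.73, limma adjusted p = 0.0180), without the dimmest 33.3% of probe sets (limma adjusted p = 0.0410), under a trended robust prior (limma adjusted p = 0.0283) and without metformin sample 1 (limma adjusted p = 0.0423). Krt18 read 7.64, 7.57 and 7.02, all below Alport vehicle, with a difference of -0.98 ± 0.35 (limma adjusted p = 0.105, 95% interval -1.72 to -0.24). It passed without Alport vehicle sample 2 (-1.27, limma adjusted p = 0.0385) and without metformin sample 3, which enters through the shared spread (limma adjusted p = 0.0223). Krt19 read 5.57, 5.95 and 5.12 and overlapped Alport vehicle, at -0.89 ± 0.41 (limma adjusted p = 0.233) and at -0.22 without Alport vehicle sample 3. Krt5 read 4.70, 5.46 and 4.79, at -0.67 ± 0.52 (limma adjusted p = 0.528) and at 0.28, on the other side of 0, without that sample.

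Of all probe sets 7.90% were called with losartan, 3.79% as higher and 4.11% as lower, against 2 of the 6 keratin genes. The median difference was -0.90 over the 6 and 0.01 over all probe sets. The 4 genes that were lower without overlap (Krt7, Krt8, Krt18 and Krt20) stand beside 11.3% of all probe sets, and 11.8% were higher without overlap. Over all probe sets 842 calls were higher and 913 lower, or 1238 and 724 with each sample centred on its median. Krt8 and Krt20 were called with that centring too.

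The comparison of metformin with vehicle asks what the second drug changed, against the same Alport vehicle samples. None of the 6 keratin genes passed by limma, 2 had an unadjusted p under 0.05 (Krt8 and Krt19), and all 6 differences were negative, from -1.0 to -0.16. Krt8 read 10.30, 10.04 and 9.26, all below Alport vehicle, with a difference of -0.77 ± 0.23 (limma adjusted p = 0.0659, 95% interval -1.25 to -0.28). It passed with a trended robust prior (limma adjusted p = 0.0453) and without metformin sample 1 (-0.98, limma adjusted p = 0.0275), and was -0.46 without metformin sample 3 (limma adjusted p = 0.289). Krt7 read 13.09, 12.62 and 12.68, overlapping Alport vehicle, at -0.16 ± 0.18 (limma adjusted p = 0.711, 95% interval -0.54 to 0.22). Krt19 read 6.01, 5.27 and 5.02, at -1.0 ± 0.41 (limma adjusted p = 0.192) and at -0.33 without Alport vehicle sample 3. Krt5 read 4.60, 4.70 and 4.69, at -0.99 ± 0.52 (limma adjusted p = 0.326). Without Alport vehicle sample 3 that difference was -0.04, and without Alport vehicle sample 1 it was -1.57.

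Metformin sample 3 stood apart from the other metformin samples in Krt8, Krt18 and Krt20. Krt8 was at 9.26 in it, below all wild type samples. The sample also mattered beyond the keratins. Without it 91 probe sets were called for metformin against losartan, where 10 were called with it. For metformin against vehicle 266 were called without it and 1096 with it. The same comparison had 347, 1320 and 728 calls without Alport vehicle sample 1, 2 or 3. It had 897 and 647 without metformin sample 1 or 2. Krt20 read 7.01, 6.07 and 3.55, so sample 1 lay just above the Alport vehicle range, sample 2 within it and sample 3 in that of wild type. Its difference from Alport vehicle was -0.76 ± 0.58 (limma adjusted p = 0.553). It was 0.24 without metformin sample 3, -1.49 without metformin sample 1 and -0.42 without Alport vehicle sample 1. Krt18 read 8.16, 8.25 and 6.68, with sample 3 at the level of the highest wild type sample, and differed by -0.69 ± 0.35 (limma adjusted p = 0.307), or by -0.19 without it. Of all probe sets 4.94% were called with metformin, 2.67% as higher and 2.27% as lower, against 0 of the 6 keratin genes. Krt8 alone was lower without overlap, beside 9.88% of all probe sets, and 10.6% were higher without overlap. The calls were 592 higher and 504 lower, or 827 and 381 with centring on the median.

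Metformin and losartan were then set against each other, which tests the difference between the drugs. The share of all probe sets called was 0.0450%, with 0.0180% higher and 0.0270% lower, and 0 of the 6 keratin genes passed by limma, with 2 at an unadjusted p under 0.05 (Krt7 and Krt20). Krt20 was 1.42 ± 0.58 higher with metformin (limma adjusted p = 0.524, 95% interval 0.19 to 2.65), 2.41 higher without metformin sample 3, where it passed (limma adjusted p = 0.00554), and 0.68 higher without metformin sample 1 (limma adjusted p = 0.934). Krt7 was 0.43 ± 0.18 higher with metformin (limma adjusted p = 0.522, 95% interval 0.06 to 0.81), with all 3 samples above those of losartan, a pattern that 5.77% of all probe sets shared, while 7.74% were lower without overlap. Krt8, Krt18, Krt19 and Krt5 differed by 0.15, 0.29, -0.11 and -0.32, all with intervals that include 0, such as -0.45 to 1.03 for Krt18.

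Against wild type, the treated Alport groups show what distance remained. With losartan 0 of the 6 keratin genes passed by limma, beside 0.549% of all probe sets (0.401% higher and 0.149% lower), and 2 had an unadjusted p under 0.05. These were Krt18, 0.94 ± 0.35 above wild type (limma adjusted p = 0.303), and Krt19, 1.06 ± 0.41 above it (limma adjusted p = 0.334). Krt7, Krt18, Krt19 and Krt5 had all 3 losartan samples above all wild type samples, beside 8.40% of all probe sets higher and 8.32% lower without overlap. Krt18 and Krt19 passed in a fit of only these groups (limma adjusted p = 0.0466 and 0.0304). Krt8 was level with wild type at -0.02 ± 0.23, with a 95% interval of -0.50 to 0.46, and Krt20 was at 0.53 ± 0.58 (95% interval -0.70 to 1.76).

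With metformin Krt7 rose against wild type by 0.75 ± 0.18 (limma adjusted p = 0.0246), 1 of the 6 keratin genes, beside 4.18% of all probe sets called, 2.70% as higher and 1.48% as lower. That call was lost without any 1 of the wild type samples (limma adjusted p = 0.0509, 0.0526 and 0.115) or metformin sample 1 (limma adjusted p = 0.137). Krt18 was 1.22 ± 0.35 above wild type (limma adjusted p = 0.0599) and Krt20 1.95 ± 0.58 above it (limma adjusted p = 0.0731). Without metformin sample 3 both passed, at 1.73 and 2.94 (limma adjusted p = 0.00135 and 9.81e-05), and without metformin sample 1 Krt20 was at 1.21 (limma adjusted p = 0.308). Krt19 was 0.94 ± 0.41 above wild type (limma adjusted p = 0.237), and Krt8 and Krt5 were at 0.13 and 0.19 with intervals that include 0. In all 599 calls were higher and 329 lower, or 513 and 486 with centring.

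By group mean, Krt7, Krt18 and Krt20 stood in the order wild type, losartan, metformin and Alport vehicle, but some neighbours lay within their spread. Krt7 with metformin (12.80 ± 0.26, SD) and in Alport vehicle (12.96 ± 0.17) did, as did Krt18 with losartan (7.41 ± 0.34) and metformin (7.70 ± 0.88). Krt20 with metformin had an SD of 1.79 and stood above Alport vehicle without metformin sample 3. For Krt8 losartan and wild type were neighbours at 9.72 and 9.74, and metformin followed at 9.87. Neither step between these 3 groups exceeded the spread within a group, which was 0.14 (SD) in wild type, 0.19 with losartan and 0.54 with metformin. For Krt19 metformin (5.43 ± 0.51, SD) and losartan (5.55 ± 0.42) were neighbours within their spread, between wild type (4.49 ± 0.11) and Alport vehicle (6.44 ± 1.16). For Krt5 the means of wild type (4.48 ± 0.23), metformin (4.66 ± 0.06) and losartan (4.98 ± 0.42) lay close together.

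Markers of other cells were read beside these values. In Alport vehicle sample 3, in which Krt5 and Krt19 were high, the urothelial genes were high as well. The other keratins did not all follow. Krt18 was highest of its group in that sample (8.86), Krt20 of the umbrella cells was not (6.07), and Krt7 and Krt8 were lowest there (12.76 and 10.47). Upk1a, a uroplakin of the umbrella cell membrane, read 6.14, 6.19 and 8.78 in the Alport vehicle samples, Upk2 read 4.04, 3.78 and 5.71, and Psca 7.98, 8.94 and 10.47. The mean over all 5 urothelial genes was 5.68, 5.91 and 7.36 in Alport vehicle, 5.18 to 5.23 in wild type, 5.67 to 6.38 with losartan and 5.41 to 5.76 with metformin. Of these 5 genes Upk1b and Psca rose in Alport vehicle against wild type, at 1.06 ± 0.28 and 2.58 ± 0.55 (limma adjusted p = 0.0140 and 0.00392), beside 8.43% of all probe sets. Upk1a, Upk2 and Upk3a did not pass. The signals of Upk2 and Upk3a were low on the array, with wild type means of 3.90 and 4.19. With metformin against vehicle Upk1b fell by 1.21 ± 0.28 (limma adjusted p = 0.0200), beside 2.27% of all probe sets, and the other 4 were at -0.98 to -0.17 without passing. With losartan 0 of the 5 passed by limma, beside 7.90% of all probe sets called, and 0 had an unadjusted p under 0.05. Losartan sample 2, the highest of its group in Krt5 and Krt19, was also the highest of its group in Upk1a (7.14) and Upk2 (4.90). Their part in the values of Krt5 and Krt19 was not tested.

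Genes of injured tubules were read beside Krt20 and Krt18, and those given by sample were picked after their values were seen. The injury receptor Havcr1 read 14.55, 14.03 and 12.15 in the metformin samples, the hyaluronan receptor Cd44 9.56, 8.94 and 6.60, and the adhesion molecule Vcam1 12.25, 11.29 and 9.12. Metformin sample 3 was thus the lowest of its group in these genes, as it was in Krt20 and Krt18, and also in Krt8 and Krt19. The mean over 7 measured injury genes was 7.97 to 8.10 in wild type, 12.21 to 13.36 in Alport vehicle, 10.62 to 11.37 with losartan, and 12.67, 12.25 and 10.69 with metformin. All 7 rose in Alport vehicle against wild type, beside 8.43% of all probe sets. With losartan 5 of them fell, beside 4.11%, and with metformin 1, Sox9, beside 2.27%. Clu and Cd24a hardly differed between metformin and Alport vehicle, at -0.13 ± 0.32 and -0.07 ± 0.19 (limma adjusted p = 0.893 and 0.913). Whether their cells carry the keratin signal was not tested.

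**Figure D4:**
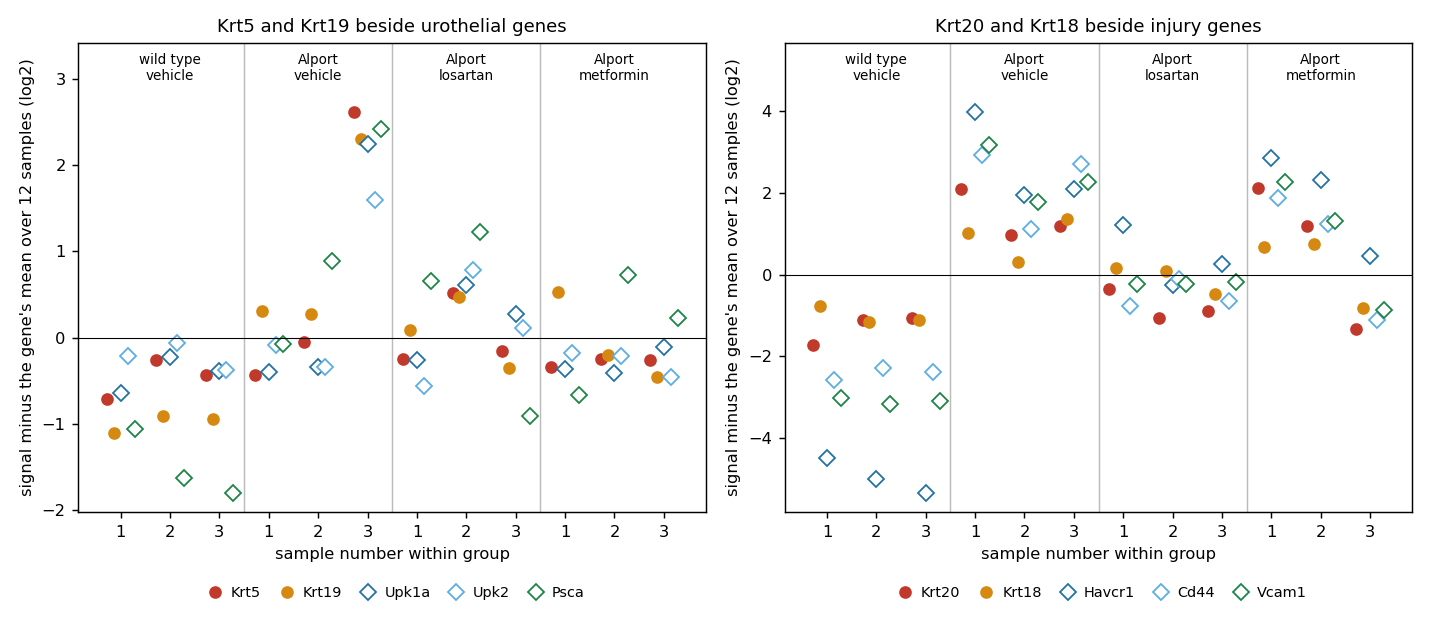
Signal minus the gene's own mean over 12 samples (log2), by sample number within each group; filled circles are keratins and open diamonds are marker genes. On the left Krt5 and Krt19 stand highest in Alport vehicle sample 3 with Upk1a, Upk2 and Psca, and on the right Krt20 and Krt18 are low in metformin sample 3 with Havcr1, Cd44 and Vcam1.

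Markers of other nephron segments and epithelia were read as well. Of 7 principal cell genes of the collecting duct, where Krt7 and Krt19 are known to be expressed, only the water channel Aqp2 rose in Alport vehicle (1.49 ± 0.28, limma adjusted p = 0.00142), and 8.43% of all probe sets did so. The 7 differences ran from -0.68 to 1.49, with a median of 0.07 and 4 of them above 0. The mean of the 7 was 10.40 to 10.68 in wild type and 10.70 to 10.81 in Alport vehicle. It was 11.07 to 11.29 with metformin, above all other samples. Yet 0 of the 7 genes passed by limma for metformin against vehicle or against losartan, beside 4.94% and 0.0450% of all probe sets. At such shares 0 of 7 says little about these genes. An unadjusted p under 0.05 was seen in 4 and 5 of them. Of 6 genes of the basal layer of stratified epithelium, including Trp63, Krt14 and Krt15, 0 passed by limma in Alport vehicle against wild type. Of all probe sets 16.1% were called there, and 1 of the 6 had an unadjusted p under 0.05. Of 3 measured mesothelial genes, 0 passed and 1 had an unadjusted p under 0.05. The sample means of the basal list were 4.11 to 4.62 and those of the mesothelial list 4.52 to 5.19. Both lie below the array medians, so changes in most of these genes would be hard to see. All 8 proximal tubule genes fell in Alport vehicle, with a median of -0.97, beside 7.71% of all probe sets.

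The other keratins served as the family's background. The array held 49 keratin genes, 27 on chromosome 11 and 22 on chromosome 15. Of the 43 that are not among the 6, 0 passed by limma in Alport vehicle against wild type, beside 16.1% of all probe sets, and 4 had an unadjusted p under 0.05. Their median difference was 0.05, from Krt10 at -0.88 ± 0.33 (limma adjusted p = 0.0864), the suprabasal keratin of the epidermis, to Krt15 at 0.60 ± 0.22 (limma adjusted p = 0.0791), a basal keratin. For 41 of the 43 every group mean lay below the lowest array median, so little could be seen of them, and the exceptions were Krt10 and Krt80, the brightest of them (0.23 ± 0.23). The others with the smallest p in their list were Krt4 (-0.36) and Krt24 (-0.40), and, of the hair keratins, Krt84 (-0.40), Krt35 (-0.31), Krt32 (0.33) and Krt34 (-0.21), with Krt86 (-0.05) the brightest hair keratin. With losartan or metformin against vehicle 0 of the 43 passed by limma, beside 7.90% and 4.94% of all probe sets. In each of these comparisons 2 had an unadjusted p under 0.05. Krt10 fell with metformin against wild type, at -1.24 ± 0.33 (limma adjusted p = 0.0446).

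**Figure D5:**
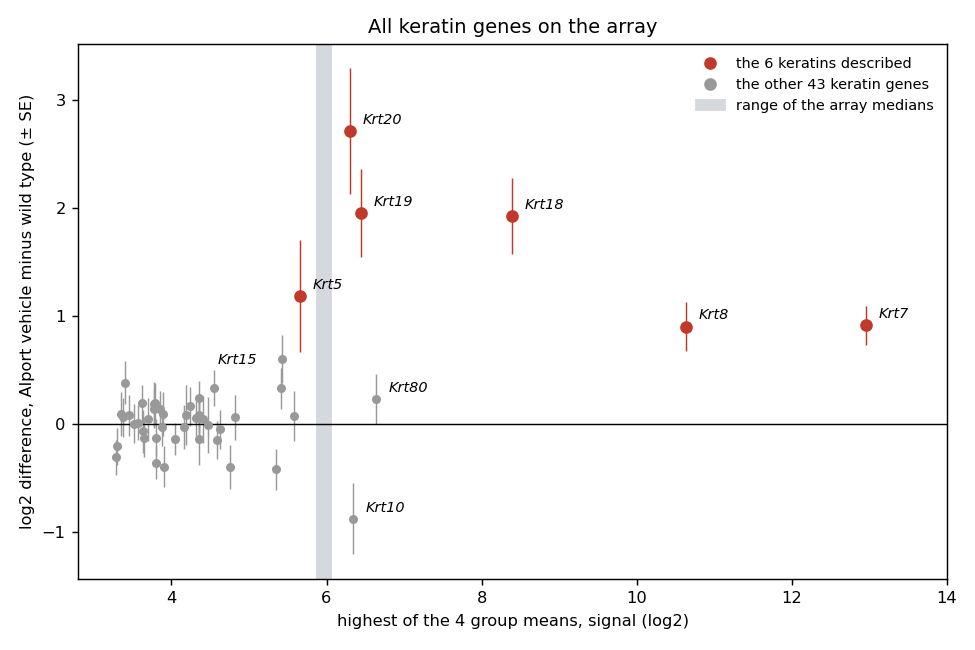
Difference in log2 signal between Alport vehicle and wild type (± SE, n = 3 per group) against the highest of the 4 group means for all 49 keratin genes on the array, with the range of array medians shaded. The 6 keratins followed here, in red, lie at 0.90 to 2.71, and the other 43, in grey, between -0.88 and 0.60, nearly all of them left of the shaded band.

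Desmosomes, hemidesmosomes and plakins anchor keratin filaments to the membrane. Of 19 measured genes of this kind 1 rose and 1 fell in Alport vehicle against wild type, beside 8.43% and 7.71% of all probe sets, and 5 had an unadjusted p under 0.05. Their median was 0.03. Desmoplakin (Dsp), which links keratins to the desmosome, read 7.89, 7.43 and 8.23 in wild type and 8.63, 8.72 and 8.87 in Alport vehicle. It rose by 0.89 ± 0.21 (limma adjusted p = 0.00809), and it fell with losartan by 0.93 ± 0.21 (limma adjusted p = 0.0141). Perp, a desmosomal membrane protein, fell by 0.56 ± 0.18 in Alport vehicle (limma adjusted p = 0.0421). Among those that did not pass in Alport vehicle were Pkp4 (-0.48 ± 0.17), the one with the highest signal of the list, and Ppl (0.65 ± 0.28).

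Of 13 genes of epithelial adhesion and identity, 8 rose and 1 fell in Alport vehicle, beside 8.43% and 7.71% of all probe sets, with a median of 0.76. The tight junction genes Cldn4 and Cldn7 rose by 2.31 ± 0.34 and 1.5 ± 0.20 (limma adjusted p = 0.000219 and 8.91e-05), and the epithelial transcription factor Ehf by 1.57 ± 0.25 (limma adjusted p = 0.000353). The splicing regulator Esrp2 fell by 1.26 ± 0.23 (limma adjusted p = 0.000997) and rose with both losartan (1.08 ± 0.23) and metformin (1.04 ± 0.23). The kidney-specific cadherin Cdh16, the brightest probe set among these, did not pass (-0.28 ± 0.16). Of the 13 genes 1 rose and 2 fell with losartan, beside 3.79% and 4.11% of all probe sets, and 1 rose and 1 fell with metformin, beside 2.67% and 2.27%.

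Of 13 genes of other intermediate filaments, 4 rose and 0 fell in Alport vehicle, beside 8.43% and 7.71% of all probe sets, with a median of 0.35. Vimentin (Vim), the filament of mesenchymal cells and of dedifferentiated tubules, read 9.60, 9.19 and 9.70 in wild type and 13.32, 13.23 and 14.11 in Alport vehicle. It rose by 4.06 ± 0.30 (limma adjusted p = 4.59e-07) and fell with losartan by 2.03 ± 0.30 and with metformin by 1.5 ± 0.30 (limma adjusted p = 0.00102 and 0.0103). The other 3 that rose were nestin (Nes, 1.78 ± 0.25) and the nuclear lamins Lmna (1.16 ± 0.23) and Lmnb1 (0.71 ± 0.23).

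For each keratin the genes with the most similar pattern were found by the mean absolute difference over the 12 samples, after each gene was centred on its own mean. The samples share their groups, so a small difference mostly says that a gene moved between groups by a similar amount. Krt5 is an exception, because its pattern was set largely by Alport vehicle sample 3. For Krt5 the nearest was Upk1a, at 0.145 log2 units against a median of 0.563 over all 19504 other genes, followed by Ctse (0.305) and Upk2 (0.307). Thus 2 of the 3 nearest genes to the basal keratin were uroplakins. Krt5, Upk1a, Ctse and Upk2 all read highest in Alport vehicle sample 3, at 7.56, 8.78, 7.10 and 5.71. For Krt18 the nearest were Niban1 (0.164), Tnfaip3 (0.165) and Itgb2 (0.171), against a median of 0.756. For Krt8 they were Uhrf1 (0.102), Adamtsl5 (0.122) and Nek2 (0.138), against 0.437, and for Krt7 Ssbp4 (0.101), Aplp1 (0.117) and Rpl19 (0.119), against 0.398. For Krt19 they were Sla (0.231), Selplg (0.253) and Cd53 (0.263), against 0.694, with no uroplakin among them. These 3 genes also read highest in Alport vehicle sample 3, at 7.77, 8.24 and 9.28, so high values there were not limited to urothelial genes. For Krt20, the most variable of the 6, they were C4b (0.306), Slc15a3 (0.340) and Cxcl10 (0.346), against 1.27. No keratin was among the 3 nearest genes of another.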

How the data were processed

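Whole-kidney RNA of 12 mouse samples was measured on Affymetrix Clariom S arrays, per the labels. The deposited table gives log2 signals of 22206 probe sets, 1 value for each sample. The log2 scale was read from the values (2.30 to 19.88), and the software, per the submitters' processing notes, was Transcriptome Analysis Console 4.0. How background, array normalization and summarisation were handled is "not given in the sources used here". No depth applies, and the number of arrays limits the precision.

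Gene symbols came from the platform annotation, updated by Entrez identifier against RefSeq (GRCm38.p6); 19572 had 1 symbol, 0 had several and 2634 stayed unnamed. Groups follow the sample titles. A mean per group was fitted to all 12 samples with limma 3.58.1 in R 4.3.3 (lmFit and eBayes, 8 residual degrees of freedom, two-sided). The Benjamini-Hochberg adjustment ran over all probe sets within a comparison, and features with adjusted p below 0.05 are called; rose and fell are used of called changes. No probe set was filtered out. Errors are standard errors of the fit unless SD is named, and intervals are 95% intervals of single differences, not adjusted for the number of genes.

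The genes and lists were chosen with earlier results of these data known. Of each pathway list the genes with the smallest p in Alport vehicle against wild type, up to 4, are named, with the gene of the highest mean. For each keratin the 3 genes with the nearest pattern are named. Of marker lists, defining genes are named, and which of them stand beside a keratin was chosen after their values were seen. Promoter sequences are RefSeq's. The alternatives are given in the closing section.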

Additional observations from a re-analysis of the deposited data

How the results depend on the processing

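The 5 calls in Alport vehicle against wild type were kept with median centring, a new quantile normalization and a trended robust prior. They were also kept with array weights, a fit of only these groups and the dimmest 33.3% of probe sets left out. That filter used the mean over all 12 samples, which high Alport values raise. It is thus no check on the low wild type signals of Krt19 and Krt20. The other counts of called keratins rest on few samples. Leaving out 1 sample at a time gave 4 to 5 calls in Alport vehicle against wild type. It gave 0 to 3 for losartan and 0 to 1 for metformin against vehicle, and 0 to 1 for metformin against losartan. Against wild type it gave 0 to 0 for losartan and 0 to 3 for metformin. Calls over all 22206 probe sets moved in the same fits. They ran from 2549 to 3756 in Alport vehicle against wild type, and from 716 to 2073 for losartan against vehicle. The range was 266 to 1320 for metformin against vehicle and 5 to 91 for metformin against losartan. Against wild type it was 37 to 191 for losartan and 346 to 1065 for metformin. With a trended robust prior 1 gene was called for metformin against vehicle, beside 1297 of all probe sets. In fits of only the groups compared 2 were called for losartan against wild type and 2 for metformin against wild type. Over all probe sets these fits called 285 and 868. For metformin against wild type 2 were called without dim probe sets and 3 with array weights. Over all probe sets tested these settings called 1053 of 14807 and 1293 of 22206. Under an unadjusted p with at least a 2-fold change 4 were called in Alport vehicle against wild type, where Krt7 and Krt8 dropped out by size and Krt5 came in. By that rule the count was 1 for losartan against vehicle, 1 for metformin against vehicle and 1 for metformin against losartan. It was 1 for losartan against wild type and 2 for metformin against wild type. The cause was not tested, and the share of all probe sets under that rule was not counted.

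The sign changed in 9 cases, none of them called in either fit. Over the fits without 1 sample, Krt5 with losartan against vehicle ran from -1.25 to 0.28 (without Alport vehicle sample 3), and Krt20 with metformin against vehicle from -1.49 to 0.24 (without metformin sample 3). For metformin against losartan Krt19 ran from -0.40 to 0.09 (without losartan sample 2 or metformin sample 3), and Krt8 from -0.07 (without metformin sample 1) to 0.45. Krt8 with losartan against wild type ran from -0.11 to 0.08, above 0 without wild type sample 3 or losartan sample 3 and at 0.00 without wild type sample 1, and with metformin against wild type from -0.09 (without metformin sample 1) to 0.43.

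Samples with the same replicate number did not deviate together (correlations of -0.14 to 0.08 over 18 pairs, 0 of them over 0.1), so the numbers share only a name. With the replicate number as a block 5, 3, 0, 0, 0 and 1 keratins were called in the 6 comparisons in the order of the report. Over all probe sets 3333, 1545, 910, 15, 108 and 803 were called in that order. With that block Krt7 with losartan against Alport vehicle passed (limma adjusted p = 0.0456).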
